A study of Rattus norvegicus with 6 samples.

Results

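Caveolae are flask-shaped pits of the plasma membrane that are abundant in the endothelium of skin, where they take part in transcytosis, lipid traffic and the buffering of membrane tension. Their coat is built from caveolins, which insert into the membrane, and from cavins, which are recruited from the cytosol. In endothelial cells the necks of caveolae and the openings of fenestrae can be bridged by a thin diaphragm, and the protein Plvap is needed to form it. The 5 genes described here are Plvap, the caveolins Cav1 and Cav2, and the cavins Cavin1 and Cavin2. They were chosen by name, each has 1 probeset, and they are 5 of 15037 genes that carry a symbol on the array.

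RNA came from dermal blood vessel endothelium of Sprague-Dawley rats, 3 of them Il33 knockout (animals 28 and 27, female, and 52, male) and 3 of them wildtype (34 and 45, female, and 37, male), with 1 array for each animal. Abdominal skin was digested with collagenase I and DNase I for 2 hours. Leukocytes (CD45) and lymphatic endothelium (Lyve-1) were then removed on magnetic beads and CD31-positive cells kept. The sources used here do not say how Il33 was disrupted, whether it was lost in endothelium alone or how old the rats were. Values are log2 expression after RMA, a method that corrects background, evens out the arrays and gives 1 value to each probeset. Since the tissue was sorted in bulk, fewer cells of a type and less RNA per cell cannot be told apart. That the unit is log2 is read from the labels' mention of RMA, and the brightest values exceed what a scanner usually gives on that scale.

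In the knockout Il33 had values of 8.07, 8.37 and 9.82, against 13.86, 16.32 and 16.60 in the wildtype, and it was the 1 gene among 11515 tested that passed the comparison of genotypes (limma, adjusted p = 0.0439). That call was lost on leaving out any 1 array other than wildtype 34. Blood endothelial markers had a list median of 15.08 to 15.23 in the knockout and 14.76 to 15.21 in the wildtype. Among them Cdh5 (19.62 to 19.70 in the knockout and 19.62 to 19.71 in the wildtype) lay within 0.5 of the array maximum, where differences can be hidden. Markers further from it varied more, by unequal amounts. Esam was at 14.67 to 15.23 in the knockout and 12.86 to 15.21 in the wildtype, and Vwf at 8.53 to 10.54 and 8.58 to 9.70. By sex Vwf was 10.54 and 9.70 in males 52 and 37, against 8.53 to 9.08 in the females. Emcn, at 16.57 to 17.32 and 16.90 to 17.05, and Pecam1, at 15.08 to 15.31 and 14.99 to 15.82, varied less than Esam and Vwf. RNA of other cells was present in unequal amounts. The keratinocyte median was 8.07 to 11.56 in the knockout and 7.96 to 15.11 in the wildtype, with the top value in wildtype 34. The mean of the 8 spike-in controls was high on knockout 28 (10.26) and wildtype 34 (10.42) and 45 (10.12), and lower on knockout 27 (9.33) and 52 (8.82) and wildtype 37 (8.91). The upper quartile of all probesets was 7.44 and 7.39 on the male arrays 52 and 37, against 6.99 to 7.14 on the 4 female arrays.

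The sequence before each gene's start is shown as a description. Cav1 and Cav2 are direct neighbours on chromosome 4, on the same strand with 0 annotated genes between them. A link of these sequences to the courses of the genes over the 6 arrays, described further on, was not tested. Each line is the 250 bases before a RefSeq start in the rat assembly GRCr8, on the strand of the gene. The windows are chr16:18231280-18231529 (minus strand) for Plvap, chr4:46606288-46606537 (plus) for Cav1, chr4:46582431-46582680 (plus) for Cav2, chr10:86396384-86396633 (minus) for Cavin1 and chr9:57806025-57806274 (minus) for Cavin2. Capitals mark matches, on either strand, to 4 motifs. The GC box, bound by Sp1 and its relatives, was searched as GGGCGG. The site of the factor NF-Y was searched as the letters CCAAT. For the box where the general transcription machinery docks the letters were TATAAA. The site of AP-1, the dimer of Fos and Jun proteins, was searched as TGACTCA.
Plvap: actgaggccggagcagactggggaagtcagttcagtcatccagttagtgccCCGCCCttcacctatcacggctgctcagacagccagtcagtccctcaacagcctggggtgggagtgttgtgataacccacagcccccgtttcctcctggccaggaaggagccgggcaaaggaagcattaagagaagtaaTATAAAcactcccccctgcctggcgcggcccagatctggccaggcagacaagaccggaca
Cav1: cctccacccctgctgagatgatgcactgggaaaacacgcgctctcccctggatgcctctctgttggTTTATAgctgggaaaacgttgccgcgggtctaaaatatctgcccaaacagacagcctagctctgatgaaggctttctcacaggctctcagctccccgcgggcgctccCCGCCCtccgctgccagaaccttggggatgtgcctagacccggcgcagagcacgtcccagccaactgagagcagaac
Cav2: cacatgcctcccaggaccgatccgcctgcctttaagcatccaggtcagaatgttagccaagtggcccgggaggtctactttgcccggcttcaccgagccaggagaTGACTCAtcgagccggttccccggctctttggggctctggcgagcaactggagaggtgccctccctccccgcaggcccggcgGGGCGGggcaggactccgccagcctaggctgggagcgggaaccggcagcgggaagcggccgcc
Cavin1: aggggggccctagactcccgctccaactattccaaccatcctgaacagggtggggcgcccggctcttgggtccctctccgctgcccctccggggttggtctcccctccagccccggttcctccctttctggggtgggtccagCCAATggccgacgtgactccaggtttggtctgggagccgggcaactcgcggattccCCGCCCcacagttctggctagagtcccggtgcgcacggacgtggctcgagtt
Cavin2: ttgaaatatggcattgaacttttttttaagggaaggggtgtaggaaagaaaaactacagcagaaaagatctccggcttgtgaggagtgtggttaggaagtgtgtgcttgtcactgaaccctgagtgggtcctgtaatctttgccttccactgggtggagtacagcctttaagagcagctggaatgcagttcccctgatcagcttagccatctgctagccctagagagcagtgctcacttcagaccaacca
Windows of Plvap, Cav1, Cav2 and Cavin1 each hold 1 GC box, a motif found in 30.5% of the 33469 rat promoter windows of that length. Plvap has the TATAAA motif from 60 to 55 bases before the start, and Cav1 has one on the opposite strand from 184 to 179 bases before it, where 12.9% of windows hold the motif. An AP-1 motif lies in the Cav2 window (4.05% of windows) and an NF-Y site in that of Cavin1 (34% of windows). None of these 4 motifs occurs in the window of Cavin2, which is also the least GC-rich at 47.6%, against 59.2% to 68.4% for the other 4 and a median of 51.2% over all windows. Cav1 has a second RefSeq start, whose window holds none of the 4 motifs. On the array Cav1 has 1 probeset. A match in these letters is a description of the sequence and not a binding site.

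Plvap, the diaphragm protein, lay at the top of the scale. Its values were 19.73, 19.75 and 19.90 in knockout 28, 27 and 52, against 19.73, 19.67 and 19.90 in wildtype 34, 45 and 37. On every array this was 0.03 below the brightest probeset, so a difference in Plvap could be hidden. Plvap is the 1 member within 0.5 of the array maximum; 39 genes in all, or 0.259%, lie that close. The group means were 19.79 ± 0.09 in the knockout and 19.77 ± 0.12 in the wildtype (SD, n = 3 each). Their difference of 0.03 (SE 0.30, 95% interval -0.65 to 0.70, limma adjusted p = 0.999) says little about the transcript for that reason.

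Cav1, the caveolin without which endothelium forms no caveolae, lay on average 1.40 below the maximum, outside the window of 0.5. It had 18.45, 18.48 and 18.49 in knockout 28, 27 and 52, against 18.39, 18.09 and 18.54 in wildtype 34, 45 and 37. The knockout arrays spanned 0.04 and lay inside the range of the wildtype, in which animal 45 was lowest. Group means were 18.47 ± 0.02 in the knockout and 18.34 ± 0.23 in the wildtype, a difference of 0.13 (SE 0.31, 95% interval -0.56 to 0.82, limma adjusted p = 0.999). Over all 6 arrays Cav1 spanned 0.45 on the log2 scale.

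Cav2, which assembles with Cav1 and depends on it to reach the cell surface, varied more. Its values were 12.84, 13.13 and 13.93 in knockout 28, 27 and 52, against 13.08, 12.88 and 14.19 in wildtype 34, 45 and 37. The highest value of each genotype came from its male, and the groups overlapped. The means of 13.30 ± 0.56 in the knockout and 13.38 ± 0.71 in the wildtype differed by -0.08 (SE 0.45, 95% interval -1.09 to 0.92, limma adjusted p = 0.999). This difference turned positive in the females alone (0.005) and without knockout 28 (0.15), knockout 27 (0.002) or wildtype 37 (0.32), so the data give no direction for it.

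Cavin1, the coat protein that caveolae of mice cannot form without, had 14.41, 14.99 and 15.53 in knockout 28, 27 and 52, against 14.08, 14.42 and 15.76 in wildtype 34, 45 and 37. Here too the males were highest in both genotypes, and the groups overlapped. The means of 14.98 ± 0.56 in the knockout and 14.75 ± 0.89 in the wildtype differed by 0.22 (SE 0.49, 95% interval -0.88 to 1.33, limma adjusted p = 0.999). The sign turned without knockout 52 (-0.05) or wildtype 34 (-0.11), and in a fit with the spike-in level as a block (-0.17). Without wildtype 37 the difference was 0.73 (adjusted p = 0.678).

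Cavin2, a cavin that bends membrane and on which endothelial caveolae of some mouse tissues depend, was the 1 member whose genotypes did not overlap. It had 13.31, 13.21 and 13.01 in knockout 28, 27 and 52, against 12.86, 12.59 and 12.66 in wildtype 34, 45 and 37. Every knockout array lay above every wildtype array, and the nearest pair, knockout 52 and wildtype 34, was the male of one genotype and a female of the other. The means were 13.18 ± 0.15 in the knockout and 12.70 ± 0.14 in the wildtype, a difference of 0.47 (SE 0.31, 95% interval -0.21 to 1.16). It did not pass the test (limma adjusted p = 0.999). By its unadjusted limma value of 0.154 it ranked 1201st of 11515 genes, and 22.1% of genes had a difference at least as large in either direction. The difference was 0.35 between the males and 0.54 between the females, and 0.59 among arrays of high and 0.45 among arrays of low spike-in signal. It stayed between 0.41 and 0.56 on leaving out each array in turn. The separation of the groups did depend on scaling: after a further quantile normalization, knockout 28, 27 and 52 had 13.48, 13.18 and 12.67, against 13.03, 12.89 and 12.37 in wildtype 34, 45 and 37, which overlap.

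**Figure D1:**
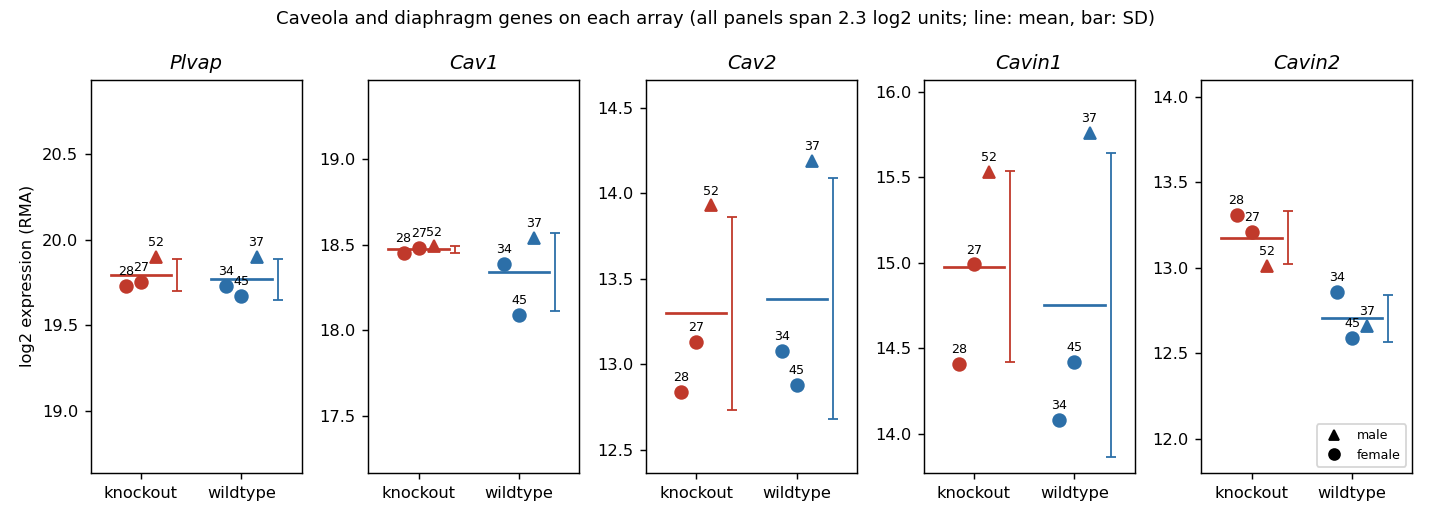
Log2 expression (RMA) of the 5 genes on each array, with knockout left of wildtype, triangles for males, circles for females and animal numbers beside the points; lines are group means and bars SD (n = 3 each). Plvap and Cav1 are nearly flat, the males 52 and 37 are highest for Cav2 and Cavin1, and the knockout values of Cavin2 (13.01 to 13.31) lie above its wildtype values (12.59 to 12.86).

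Of the 5 genes, 4 had a higher mean in the knockout and 1 a lower one, where 54.1% of all genes tested had a higher mean in the knockout. The median of the 5 differences was 0.13, beside 0.04 over all genes. None of the 5 passed the test between genotypes, whose background is 0.00868% of genes called, and 0 had an unadjusted p under 0.05 in limma, where 1.97% of all genes did. Knockout above wildtype without overlap, seen for 1 of the 5, occurred in 3.36% of all genes, and no overlap in either direction in 6.25%. The intervals show what sizes remain possible: for Cav1 and Cavin2 they end at 0.82 and 1.16 above the wildtype and 0.56 and 0.21 below it, and for Cav2 and Cavin1 they reach about 1 in either direction, from -1.09 to 0.92 and from -0.88 to 1.33.

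**Figure D2:**
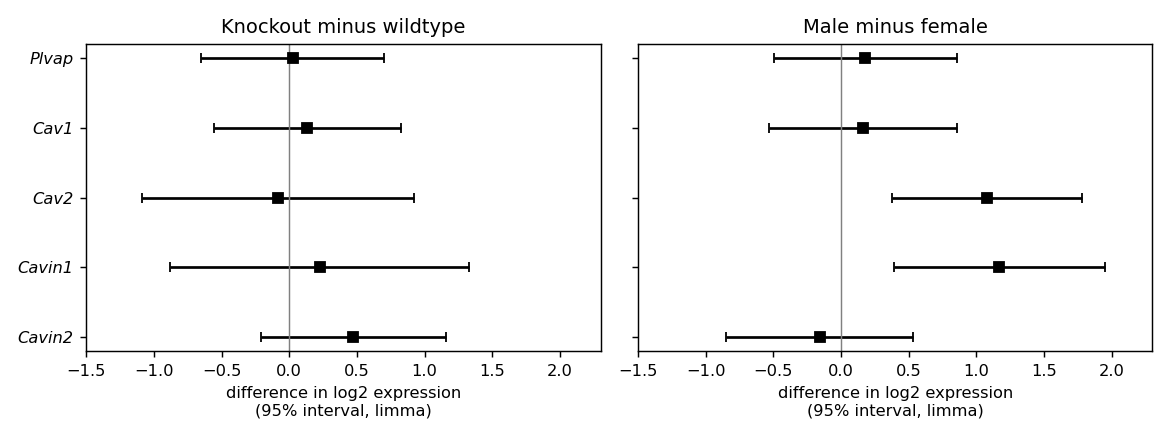
Differences in log2 expression with 95% intervals from limma, knockout minus wildtype on the left and male minus female on the right, for each of the 5 genes. All genotype intervals include 0; those of Cav2 (0.38 to 1.78) and Cavin1 (0.39 to 1.95) between the sexes do not, although neither gene passed after adjustment over all genes.

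The members divided between the sexes, with Cav2 and Cavin1 high in males. Males were higher than every female for Cav2, with 13.93 and 14.19 in males 52 and 37 and 12.84 to 13.13 in the 4 females. For Cavin1 they had 15.53 and 15.76, against 14.08 to 14.99 in the females. The differences were 1.08 (SE 0.31) for Cav2 and 1.17 (SE 0.35) for Cavin1, with genotype in the model. Both missed the threshold after adjustment (limma adjusted p = 0.148 and 0.156). These are the 2 of 5 members under 0.05 before adjustment (0.00675 and 0.00785), as were 18.7% of all genes. Within the knockout, the male exceeded the mean of the females by 0.95 for Cav2 and 0.83 for Cavin1, and within the wildtype by 1.21 and 1.51. Cav1 differed by 0.16 (SE 0.31, adjusted p = 0.803) and Cavin2 by -0.16 (SE 0.31, adjusted p = 0.808). Plvap differed by 0.18, with array maxima of 19.93 in the males against 19.70 to 19.78 in the females. Between sexes 0.0261% of all genes were called, namely 3 genes named here after their values were seen: Ddx3y and Eif2s3y on the Y chromosome and the lymphatic chemokine Ccl21, lower in males.

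The male arrays also differed from the female ones over genes in general. Of the 5 genes, 4 had a higher mean in males, beside 61.7% of all genes. The same 4 lay above every female, as did 23.5% of all genes, and 31.7% of all genes had no overlap in either direction. Of the 4, Plvap, 0.03 below the maximum of each array, only follows those maxima. For Cav1 the males (18.49 and 18.54) barely exceeded the highest female (18.48). The median difference of all genes was 0.18 as deposited, 0.29 after centring on array medians and 0.06 after quantile normalization. Relative to it Cav2 stood 0.90 higher in males as deposited and 0.59 after quantile normalization, and Cavin1 0.99 and 0.72. Centring shifts all genes of an array alike, so it cannot change these relative values. Among 704 genes with a mean between 11 and 14 the median was 0.49, and likewise 0.49 among 257 genes between 14 and 17, the levels of Cav2 and Cavin1. An absolute difference as large as that of Cav2 was found in 10.3% of all genes and one as large as that of Cavin1 in 7.86%. After quantile normalization Cav1 turned to -0.12 (limma adjusted p = 0.911) and Cavin2 reached -0.63 (adjusted p = 0.487).

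**Figure D3:**
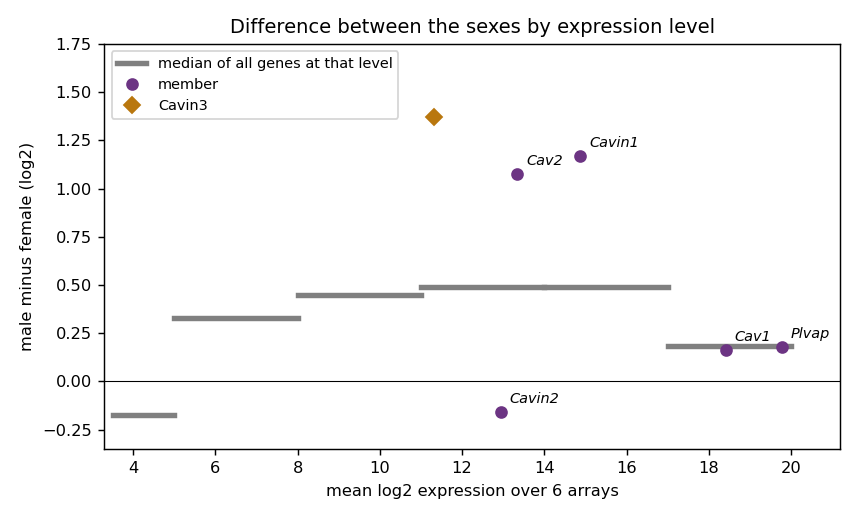
Male minus female difference in log2 expression against mean log2 expression over the 6 arrays, for the 5 genes (circles) and Cavin3 (diamond); grey lines are medians of all tested genes within that range of expression. Cav2 (1.08) and Cavin1 (1.17) lie above the medians of 0.49 at their level, Cavin2 (-0.16) below, and Cav1 and Plvap close to the median of the brightest genes (0.18).

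Markers of the sorted endothelium and of other cells also differed between these arrays. The blood endothelial list median was 15.21 and 15.23 in the males, against 14.76 to 15.12 in the females. Males lay above every female for 3 of its 9 markers, beside 23.5% of all genes, and below every female for 1. The median of their male minus female differences was 0.175. Both males and knockout 27 form the group of low spike-in signal. Among these, the males exceeded knockout 27 by 0.93 for Cav2 and 0.66 for Cavin1, and in a fit with the spike-in level as a block the difference between sexes was 0.83 (SE 0.48, limma adjusted p = 0.822) for Cav2 and 0.65 (SE 0.50, adjusted p = 0.854) for Cavin1. The keratinocyte median was 7.96 and 8.07 in the males, against 8.44 to 15.11 in the females. With it as a covariate the difference in Cavin1 was 0.59 (adjusted p = 0.743) and that in Cav2 0.97 (adjusted p = 0.627). Pericytes and smooth muscle cells also build caveolae. Their 11 markers had a median of 9.73 and 9.87 in the males, against 8.36 to 10.19 in the females. The median of their male minus female differences was 0.62. Of the 11, 8 had a higher mean in males, beside 61.7% of all genes. Males lay above every female for 4 of them, beside 23.5% of all genes. The part of these cells in the result was not tested. Adipocytes are rich in caveolae as well. Of their 7 measured markers the hormone Adipoq was 4.43, 4.55 and 4.49 in knockout 28, 27 and 52, against 4.42, 4.63 and 3.88 in wildtype 34, 45 and 37, at or below background probesets (medians of 4.65 to 4.73 in the knockout and 4.55 to 4.73 in the wildtype). Of the others, Lep, Cidec and Retn were dim and 3 were bright. The lipase Lipe was 13.12 to 13.89 in the knockout and 11.68 to 12.93 in the wildtype, and the lipase Pnpla2 11.04 to 11.41 and 10.45 to 10.98, both without overlap. They are 2 of the 5 adipocyte markers tested, and 3.36% of all genes had the knockout higher without overlap. Cidea, a lipid droplet protein, had 10.92 and 10.10 in males 52 and 37, against 7.15 to 10.42 in the females (difference 1.87, limma adjusted p = 0.231). The adipocyte list median was 4.43 to 4.57 in the knockout and 4.36 to 4.63 in the wildtype, and that of skeletal muscle 3.42 to 3.85 and 3.01 to 3.95. Lymphatic markers had a median of 7.12 to 8.56 in the knockout and 5.24 to 8.29 in the wildtype. By sex it was 5.24 and 7.12 in the males, against 7.62 to 8.56 in the females, and 5 of 6 genes were below every female in the males, beside 8.26% of all genes. The median of their male minus female differences was -2.16. It was -1.10 for leukocyte markers (list medians of 4.85 in both males, against 6.01 to 8.29 in the females) and -1.09 for fibroblast markers (8.57 and 9.13 in the males, against 8.03 to 11.34 in the females). By genotype the leukocyte median was 4.85 to 6.71 in the knockout and 4.85 to 8.29 in the wildtype, that of fibroblast markers 8.03 to 10.18 and 9.13 to 11.34, and that of erythroid genes 6.15 to 9.25 and 5.18 to 6.59. Pericyte and smooth muscle markers were at 8.53 to 10.19 in the knockout and 8.36 to 9.87 in the wildtype. Of these 11 genes, 9 had a higher mean in the knockout and 2 a lower one, beside 54.1% of all genes higher. Their median knockout minus wildtype difference was 0.30. It was -0.69 for fibroblast markers (1 higher and 8 lower), -0.465 for leukocyte markers (1 and 7) and -1.35 for keratinocyte markers (1 and 6). For lymphatic markers it was 0.68 (5 and 1), for erythroid genes 1.87 (4 and 0) and for blood endothelial markers 0.30 (7 and 2). Adipocyte markers had 0.18 (4 and 1) and those of skeletal muscle -0.10 (1 and 2). The part of the cell types other than keratinocytes in the genotype and sex differences was not tested.

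No interaction of genotype and sex passed the test for any of the 5 (limma adjusted p = 0.999 for each), in a design with 1 male a genotype. The knockout minus wildtype difference was -0.23 in the male pair and 0.45 in the females for Cavin1, -0.05 and 0.23 for Cav1, and -0.26 and 0.005 for Cav2. The interaction with the largest size, that of Cavin1, was -0.68 (SE 0.74). No gene of the 11515 tested passed that test, and 1.03% had an unadjusted p under 0.05.

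The members followed separate courses, given here as the root mean square difference between centred values over the 6 arrays, a description with no test. Cav2 and Cavin1 ran close together (0.26), closer than 97.0% of all genes ran to Cav2. Cav1 and Plvap, both nearly flat, differed by 0.10. Cavin2 ran furthest from Cavin1 (0.70) and Cav2 (0.66). The neighbours Cav1 and Cav2 differed by 0.45. That is about the median distance of all genes from Cav1 (0.43) and below their median distance from Cav2 (0.59). Values were centred but not scaled, so this distance also counts how far each gene moved. Cav1 spanned 0.45 over the 6 arrays and Cav2 1.35, and both were highest in wildtype 37. Among 11497 other genes, the 3 closest to Cav2 were Ralgps2 (0.05), Kank2 (0.07) and Grina (0.08), and those closest to Cavin1 were Gimap1 (0.09), Nr2f2 (0.10) and Taf7 (0.10). Nr2f2, the venous transcription factor, had 14.13, 14.60 and 15.36 in knockout 28, 27 and 52, against 13.69, 14.20 and 15.62 in wildtype 34, 45 and 37. Closest to Cavin2 were Ubxn2b (0.06), Mboat1 (0.07) and Gxylt1 (0.07), and to Cav1 Mccc2 (0.04), Rars2 (0.05) and Rps12 (0.05).

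Of the other caveolins and cavins, Cavin3 gave clear signal and the muscle forms did not. Cavin3, also a coat protein, had 10.68, 11.07 and 12.19 in knockout 28, 27 and 52, against 10.66, 10.99 and 12.25 in wildtype 34, 45 and 37. Its genotypes differed by 0.01 (SE 0.52), and its males, above all females as for Cav2 and Cavin1, by 1.37 (SE 0.32, limma adjusted p = 0.116). Cav3 and Cavin4, the muscle forms, lay near background, with 4.39 to 5.06 for Cav3 in the knockout and 4.45 to 4.62 in the wildtype. Cavin4 had 3.88 to 4.62 in the knockout and 3.80 to 4.82 in the wildtype. The muscle transcripts Ckm and Acta1 were also dim, at 3.92 to 5.29 and 4.27 to 4.74 in the knockout, against 4.03 to 4.74 and 4.10 to 4.48 in the wildtype.

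Proteins that shape the neck of a caveola gave 0 of 12 genes called between genotypes (0 also at an unadjusted p under 0.05 in limma), with 7 higher and 5 lower in the knockout and a median difference of 0.03. Ehd2, the ATPase that holds caveolae at the surface, had 16.41, 16.35 and 16.28 in knockout 28, 27 and 52, against 16.11, 15.86 and 16.90 in wildtype 34, 45 and 37. The wildtype range enclosed that of the knockout. Ehd4, a related ATPase, differed by -0.01 (SE 0.68) between genotypes but had 15.51 and 15.99 in the males, against 13.25 to 14.46 in the females, a difference of 1.79 (limma adjusted p = 0.127). Dnm2, the dynamin that cuts vesicles from the membrane, differed by -0.16 between genotypes. Of these 12 genes 3 were above all females in the males (Ehd3, Ehd4 and Pacsin2), a share near the 23.5% of all genes.

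**Figure D4:**
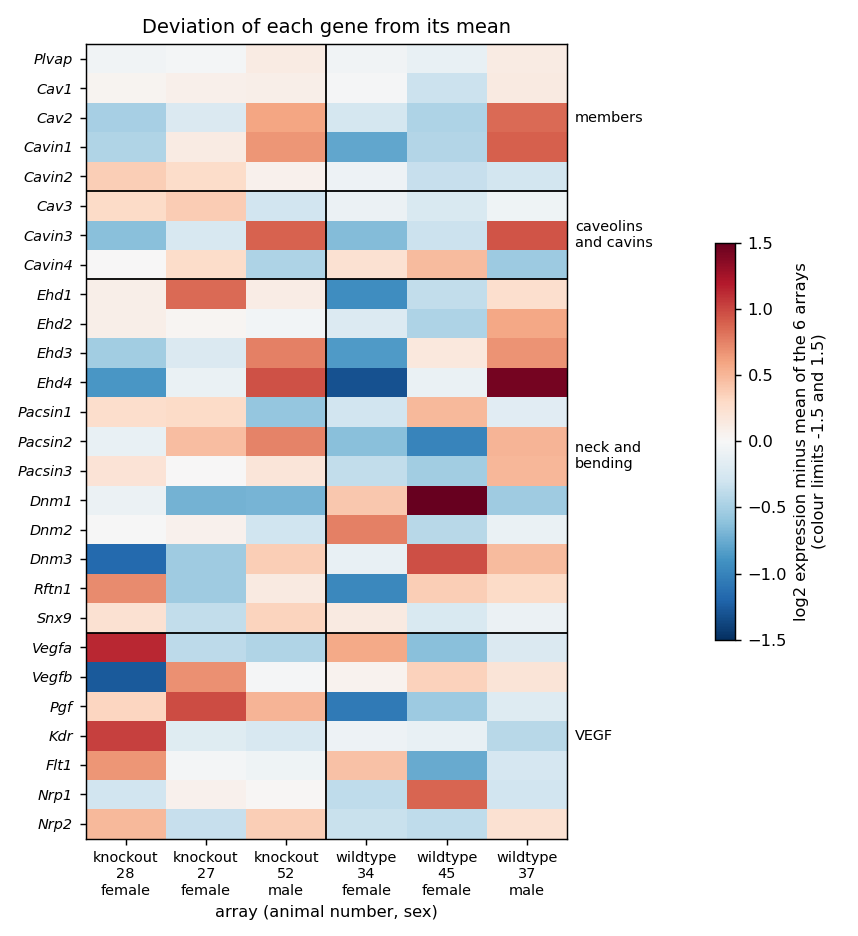
Deviation of each gene from its own mean over the 6 arrays (log2, colour limits -1.5 and 1.5) for the 5 genes, the other caveolins and cavins, the neck and bending proteins and the VEGF genes; knockout arrays are left of the wildtype arrays, and the male of each genotype is its right-hand column. Cav2, Cavin1, Cavin3, Ehd3 and Ehd4 share high values in males 52 and 37. Cavin2 is above its mean of 12.94 in all 3 knockout arrays, but barely so in knockout 52 (13.01).

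Proteins reported in caveolae or lipid rafts, a list of 24 with 21 measured and 20 tested, had 0 called between genotypes (0 unadjusted), 14 higher and 6 lower in the knockout, and a median difference of 0.29. The water channel Aqp1, at 19.16 to 19.76 in the knockout and 19.63 to 19.78 in the wildtype, and the lipoprotein receptor Scarb1, at 18.69 to 19.34 and 18.13 to 19.42, lay close to the top of the scale. Stomatin (Stom), a raft protein, had 15.38, 16.84 and 17.55 in knockout 28, 27 and 52, against 14.35, 14.26 and 17.30 in wildtype 34, 45 and 37. It differed by 1.29 (SE 0.82) between genotypes, with overlap. Between the sexes Stom differed by 2.22 (SE 0.49, limma adjusted p = 0.116), with both males above every female. The nitric oxide synthase Nos3, which Cav1 binds and inhibits, differed by 0.60 (SE 0.41, limma adjusted p = 0.999). In males 8 of the 20 were above all females, beside 23.5% of all genes, and 1, Trpv4, was below them all.

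Vascular endothelial growth factor signalling maintains the fenestrae of endothelium. None of its 7 genes was called between genotypes, and Pgf alone was under 0.05 before adjustment (limma, 0.00821, and adjusted p = 0.999). Pgf, a ligand of Flt1, had 6.04, 6.70 and 6.23 in knockout 28, 27 and 52, against 4.66, 5.18 and 5.53 in wildtype 34, 45 and 37, and did not overlap. The receptor Kdr differed by 0.40 (SE 0.41), Flt1 by 0.38 (SE 0.40) and the co-receptor Nrp2 by 0.33 (SE 0.36). For Kdr the highest value was in knockout 28 (15.90), against 14.63 to 14.69 in the other knockout animals and 14.45 to 14.80 in the wildtype.

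Genes that mark or enforce low vesicle transport, as in the brain, included Mfsd2a, the lipid transporter that suppresses caveolae there. Mfsd2a was too dim to test, at 2.89 to 3.96 in the knockout and 2.98 to 3.90 in the wildtype. Of the 5 others tested 0 were called (0 unadjusted, limma), with 3 higher and 2 lower. Cldn5, a tight junction protein, differed by 0.64 (SE 0.48), the glucose transporter Slc2a1 by 0.67 (SE 0.86) and the exporter Abcg2 by -0.07 (SE 0.81). Slc2a1 was 6.92 in wildtype 45 and 9.11 to 11.06 elsewhere.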

How the data were processed

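RNA of 6 rats was hybridised to Affymetrix arrays, and per the submitters' processing notes the authors derived the deposited log2 values by RMA (Affymetrix Expression Console). Versions, the probeset library and a genome build: not given in the sources used here. They were used as deposited. Of 24834 probesets, 1646 are controls, 15049 carry 1 gene symbol and 8139 are unnamed here; all 15049 Entrez identifiers matched RefSeq (GRCr8) and 0 symbols changed. For genes with several probesets the brightest was kept. Genes averaging below 3.52, which is the 25th percentile over probesets, were dropped; 11515 remained, all 5 members among them.

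Knockout was compared with wildtype, and male with female beside genotype, by lmFit and eBayes of limma 3.58.1, run in R 4.3.3; p-values are two-sided and adjusted by Benjamini-Hochberg over all genes tested, with a threshold of 0.05. In simulated data of the genotype comparison on 11515 genes, log2 changes of 1 were recovered for 4% of genes, of 2 for 48% and of 4 for 98%, and over the whole simulation 5 unchanged genes were called. The members, lists (7 of pathways, 9 of markers) and tests were chosen with earlier results of these data known. Named genes are Il33, the 5 members, from each pathway list the called genes and the 3 brightest, and the 3 nearest genes by course; others were chosen after their values were seen. Promoter sequences are from RefSeq, GRCr8. The number of arrays limits the precision.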

Additional observations from a re-analysis of the deposited data

How the results depend on the processing

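No paired analysis was possible because each animal has a number of its own. The 5 genes were compared between genotypes under 18 alternatives and between sexes under 17, and 0 of the genotype differences passed adjustment in any. The genotype differences of Cav1 (0.008 to 0.233) and Cavin2 (0.347 to 0.557) kept their sign in all 18, and the others changed sign in 4 each. In a fit with the spike-in level (high or low) as a block Plvap had -0.0225 and Cavin1 -0.17, with the keratinocyte median as a covariate -0.0332 and -0.331, and in the females alone Cav2 had 0.005. On leaving out each array in turn Plvap ranged from -0.0267 to 0.0933, Cav2 from -0.398 to 0.32 and Cavin1 from -0.113 to 0.727. The single gene called between genotypes, Il33, was lost (0 called) without the filter on dim genes, with the filter at the 50th percentile, in the females alone and with each probeset on its own; 0 to 1 genes were called on leaving out each array, with 1 without wildtype 34. Between sexes Cav1 turned to -0.116 with quantile normalization again, while Cav2 (1.08, limma adjusted p = 0.0445) and Cavin1 (1.18, adjusted p = 0.0466) passed with array weights, where 717 genes were called in place of 3. The count was 29 with centring on array medians, 27 with genotype left out of the model, 26 with trend and robust options, 5 with each probeset on its own, and 2 to 66 on leaving out each array, with 66 without knockout 27. The causes were not tested. Signal at the ceiling limits Plvap, and 3 arrays a group limit the rest.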

Other observations

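Caveolae need cholesterol, and the cholesterol supply list had 8 of 11 genes measured, with 0 called between genotypes and 1 at an unadjusted p under 0.05 in limma. That gene, Fdps, an enzyme of isoprenoid and sterol synthesis, had 6.08, 6.53 and 6.74 in knockout 28, 27 and 52, against 8.38, 7.29 and 7.26 in wildtype 34, 45 and 37 (difference -1.19, SE 0.40, adjusted p = 0.999). Sqle, the squalene epoxidase, was likewise without overlap at 5.19 to 5.39 in the knockout and 5.50 to 6.03 in the wildtype (difference -0.39, SE 0.32). The exporter Abca1 differed by 0.32 (SE 0.36), Insig1, which retains the sterol sensor in the endoplasmic reticulum, by 0.76 (SE 0.55) and Npc2, a lysosomal sterol carrier, by -0.32 (SE 0.37). Of the 8, 3 were higher and 5 lower in the knockout.

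Enzymes that attach palmitate or make and cleave sphingolipids had 8 of 10 genes measured, 0 called and 1 at an unadjusted p under 0.05 (limma), Smpd1. This acid sphingomyelinase had 9.13, 8.99 and 9.35 in knockout 28, 27 and 52, against 9.62, 10.23 and 9.95 in wildtype 34, 45 and 37 (difference -0.78, SE 0.32, adjusted p = 0.999), without overlap. Zdhhc5, a palmitoyl transferase, differed by 0.08 (SE 0.42) between genotypes. Cers2, a ceramide synthase, differed by 0.30 (SE 0.79) between genotypes, and its values of 10.41 in both males lay above 7.65 to 9.37 in the females (difference 2.08, adjusted p = 0.116). Over all 7 lists, 63 genes were tested, 0 called and 3 (of 63) had an unadjusted p under 0.05, beside 1.97% of all genes; 60.3% were higher in the knockout, beside 54.1% of all genes, and 6.35% did not overlap, beside 6.25% of all genes.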
